A study of Danio rerio with 4 samples.

Results

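The fast skeletal myosin heavy chain genes of the zebrafish were followed through 4 libraries made from whole embryos at 24 h post fertilisation. The genes were taken by their Ensembl identifiers: myhz1.1 (ENSDARG00000067990), myhz1.2 (ENSDARG00000067995), myhz1.3 (ENSDARG00000067997), myhz2 (ENSDARG00000012944), myha (ENSDARG00000095930), myhb (ENSDARG00000001993) and myhc4 (ENSDARG00000035438). All 7 were found among the 31953 gene rows of each count table. The study set ddx39a mutant embryos against wild type by RNA-seq, to find transcripts that differ in the mutant, and used RNA immunoprecipitation followed by sequencing (RIP-seq) to find RNAs bound by DDX39A, a DEAD-box RNA helicase with roles in splicing and in the export of mRNA. RNA-seq was made from wild-type and from ddx39a mutant embryos, and RIP-seq from samples whose genotype labels are wild type (RIP-WT) and ddx39a mutant (RIP-MUT), with 1 library in each of the 4 groups. For both RIP-seq libraries the protocol is the same: mutant embryos received ddx39a-Flag mRNA by injection, and anti-Flag beads recovered the tagged protein. Only the genotype label separates RIP-WT from RIP-MUT, so neither is read as a mock. The sources used here do not state the mutant allele or how many embryos were pooled.

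Muscle myosin is a hexamer of a pair of heavy chains and 4 light chains. The heavy chain carries the motor head, which binds actin and hydrolyses ATP, and a long coiled-coil tail that packs into the thick filament of the sarcomere. Fast and slow fibres use heavy chains from different genes, and in the zebrafish trunk at this stage most of the myotome is fast muscle, with a superficial layer of slow fibres. Folding of the heavy chain head needs the chaperones Unc45b and Hsp90a, and the methyltransferase Smyd1 takes part in thick filament assembly in zebrafish muscle.

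In a RefSeq gene table of another assembly (GRCz12tu), used for gene order alone, 6 of the genes lie side by side in the order myhz2, myhc4, myha, myhz1.3, myhz1.2 and myhz1.1, with 0 other protein-coding genes between them. The remaining gene, myhb, lies elsewhere, between p4htmb and arpc4. Tandem copies of this kind can be near-identical, and reads that fit several copies equally are not counted to any of them. Values of single copies are therefore uncertain, and such reads are missing from the summed counts of the family too. Sequences of the genes and their transcript lengths were not used here, so counts of different genes are compared as shares of counts, not as transcript numbers.

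Counts on genes came to 9922182 in wild-type and 9533101 in mutant RNA-seq, and to 1966053 in RIP-WT and 2246938 in RIP-MUT. In RIP-seq, 5 features led by zgc:158463 took 75.5% and 69.5% of these counts, against 0.053% and 0.0639% in RNA-seq. A pair of genes carries the symbol DDX39A, and which of them holds the mutation is not stated. One, ENSDARG00000015111, had 3742 counts in wild-type and 706 in mutant RNA-seq, and the other, ENSDARG00000006225, had 2242 and 2382. With 1 library per group no condition could be tested, so every comparison is between libraries. Intervals are 95% exact intervals that cover counting error only, and a gene was called when its ratio of scaled counts was at least 2-fold with an interval that excluded equality.

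Fast heavy chain counts were lower in the mutant than in the wild-type RNA-seq library for 6 of the 7 genes, and higher for myhb. Summed, the 7 genes had 78846 counts in wild type, or 0.795% of all gene counts, and 39756 in the mutant, or 0.417%. After scaling by trimmed mean of M values (TMM), the sum was 1.99-fold lower in the mutant library (1.96 to 2.01). Of the 7 genes, 4 were called lower and 1 higher. Over all 18800 genes compared, 2.6% were called lower and 2.16% higher. The median log2 ratio of the 7 genes was -1.01, and that of all genes compared was 0.00 (-0.00219).

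Nearly all the counts came from 4 genes. myhz1.3 had 36490 counts in wild-type and 18174 in mutant RNA-seq, or 3678 and 1906 CPM (counts scaled to a fixed library total), and stood 13th and 41st of all genes by count. It was 2.01-fold lower in the mutant library (1.98 to 2.05). myhz1.1 had 20901 and 11838 counts, 2106 and 1242 CPM, a 1.77-fold lower level (1.73 to 1.81). The mutant library was thus low for both, but myhz1.1 did not reach the size for a call.

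myhz2 had 13899 counts in wild type and 5764 in the mutant, 1401 and 605 CPM, and was 2.42-fold lower (2.34 to 2.49). myhz1.2 had 7361 and 3890 counts, 742 and 408 CPM, and was 1.90-fold lower (1.82 to 1.97), short of the size for a call. The intervals of the 4 abundant genes did not overlap one another, in the order myhz1.1, myhz1.2, myhz1.3 and myhz2 from the smallest difference to the largest. With total-count scaling myhz1.3 was 1.93-fold lower and was no longer called.

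The other 3 genes were counted rarely. myhc4 had 146 counts in wild-type and 41 in mutant RNA-seq, a 3.57-fold lower level (2.51 to 5.17). myha had 41 and 10 counts, 4.11-fold lower (2.02 to 9.19). Both lie between myhz2 and myhz1.3 in the gene order, and both were called lower. myhb, the gene outside the tandem row, had 8 counts in wild type and 39 in the mutant, a 4.87-fold higher level (2.24 to 12.1). Its order was thus the reverse of the others, on few counts, and with a minimum of 5 CPM neither myha nor myhb was compared.

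**Figure D1:**
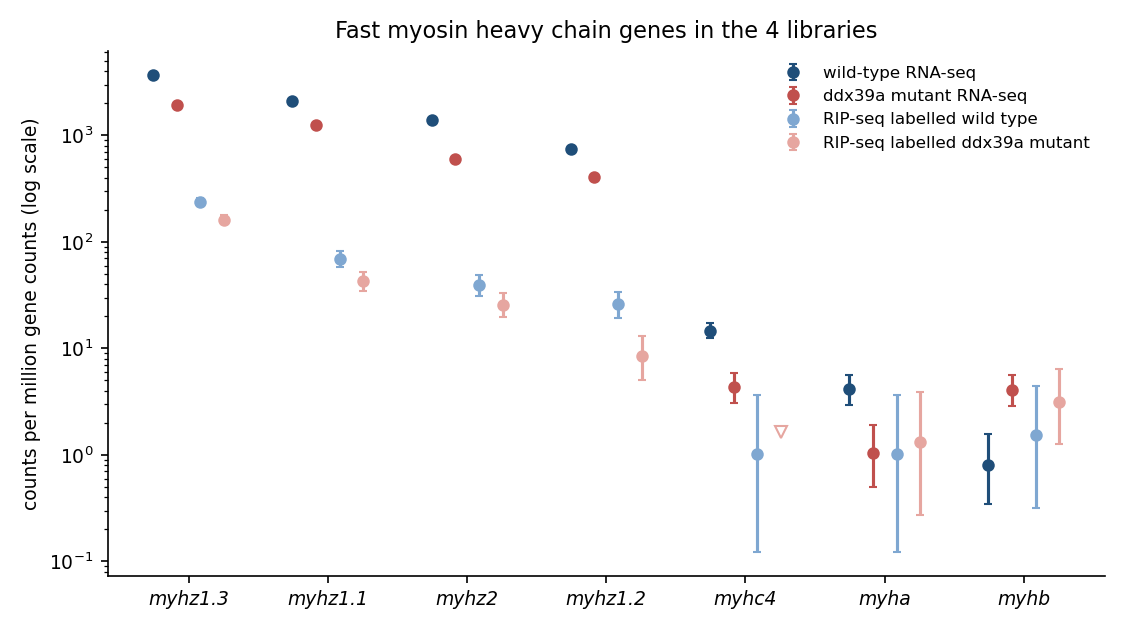
CPM (log axis) of each fast myosin heavy chain gene in the 4 libraries. Points are single libraries and bars are 95% exact Poisson intervals of the count. The open triangle is the upper bound for myhc4, which had 0 counts in RIP-MUT. In RNA-seq the wild-type point lies above the mutant point for 6 genes and below it for myhb.

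Shares within the family do not depend on library scaling. myhz1.3 made up 46.3% of the summed counts in wild type (45.9 to 46.6%) and 45.7% in the mutant (45.2 to 46.2%). Its ratio to the other 6 genes was 0.978 times as high in the mutant library (0.954 to 1.00), so a difference was not detectable at this depth. myhz1.1 held 26.5% (26.2 to 26.8%) against 29.8% (29.3 to 30.2%). myhz2 had 17.6% (17.4 to 17.9%) against 14.5% (14.1 to 14.8%), and relative to the other 6 genes it was 1.26-fold lower in the mutant library (1.22 to 1.31). The make-up thus differed a little beyond counting error, with a larger share for myhz1.1 and a smaller one for myhz2.

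myhz1.2 held 9.34% (9.13 to 9.54%) in wild type and 9.79% (9.49 to 10.1%) in the mutant. myhc4 held 0.185% (0.156 to 0.218%) and 0.103% (0.074 to 0.14%), and relative to the other 6 genes it was 1.80-fold lower (1.26 to 2.61). myhb was 9.68-fold higher relative to the others (4.46 to 24). myha was 2.07-fold lower relative to the others (1.02 to 4.63). The intervals of myhc4 and myha overlapped that of myhz2 (1.22 to 1.31). That of myhc4 lay apart from those of myhz1.1, myhz1.2 and myhz1.3, and that of myha from those of myhz1.1 and myhz1.2. Only that of myhb, on 8 and 39 counts, lay apart from those of all the abundant genes. myhz1.1, myhz1.2, myhz1.3 and myhz2 made up 99.75% of the summed counts in wild type and 99.77% in the mutant. The family's ratio is therefore mostly their own. Records set aside because they aligned to more than 1 place made up 11.2% of all records in wild-type and 8.42% in mutant RNA-seq. Their part in these shares and in the ratio of the family sum was not tested.

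**Figure D2:**
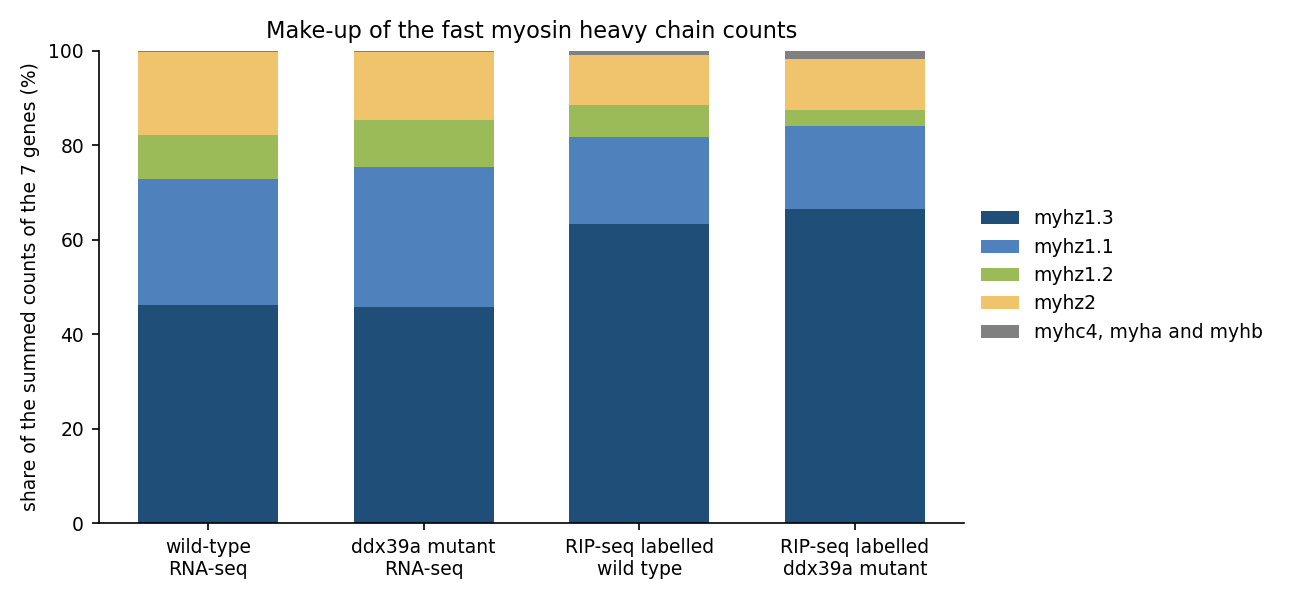
Share (%) of the summed counts of the 7 genes that each gene took in each library. Bars are single libraries. myhz1.3 took 46.3% and 45.7% in RNA-seq and 63.3% and 66.5% in RIP-seq, and myhc4, myha and myhb together form the thin top band.

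Slow heavy chains differed less between the RNA-seq libraries than the fast ones. smyhc1, the main slow heavy chain gene of the embryo, had 11843 counts in wild type and 11300 in the mutant, 1.05-fold lower (1.02 to 1.08). smyhc2 had 468 and 345 counts, a ratio of 0.736 (0.639 to 0.848). Neither was called. smyhc3 had no entry in the symbol table. Fast counts were 6.41 times the slow counts in wild type (6.28 to 6.53) and 3.41 times in the mutant library (3.34 to 3.49). The fast to slow ratio was 1.88-fold lower in the mutant library (1.82 to 1.93), a value that library scaling cannot change.

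The fast share was also lower among 20 matched heavy chain genes of all classes. The symbols vmhc, vmhcl and myh7l had no match. Symbols were often in human style, so the heart class may lack these genes or hold them under another symbol. In wild-type RNA-seq the 7 fast genes took 72.2% (71.9 to 72.5%) of the counts of these 20 genes, and in the mutant 57.3% (56.9 to 57.7%). Non-muscle and smooth muscle heavy chains, which serve cytokinesis, cell shape and contraction outside striated muscle, took 15.1% and 23.0%. Of their 6 genes none was called lower and 1, a MYH11 gene (ENSDARG00000100972, 37 against 103 counts), was called higher at 2.78-fold (1.89 to 4.16). The most abundant of them, a MYH9 gene (ENSDARG00000063295), had 7443 and 7667 counts and a ratio of 1.03 (0.996 to 1.06). Of 5 heart and other striated heavy chain genes none was called lower and myh7bb was called higher (512 against 1063 counts, 2.07-fold, 1.86 to 2.31). myh6, a cardiac heavy chain gene (ENSDARG00000090637), had 187 and 96 counts, a ratio of 0.513 (0.396 to 0.659), just short of the size for a call. The more abundant gene with the same symbol, MYH6 (ENSDARG00000079564), had 614 and 616 counts, a ratio of 1.00 (0.894 to 1.12).

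**Figure D3:**
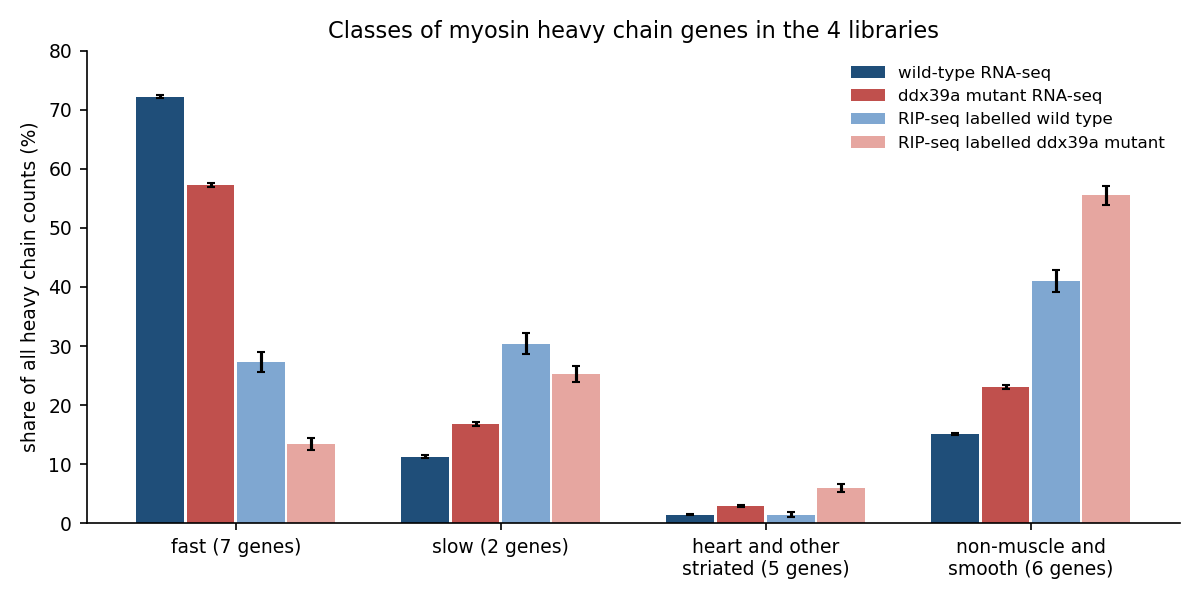
Share (%) of the counts of 20 myosin heavy chain genes that fell to each class, by library. Bars are single libraries with 95% exact binomial intervals. The fast share was 72.2% in wild-type and 57.3% in mutant RNA-seq, and 27.3% and 13.3% in RIP-WT and RIP-MUT.

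Part of the genes whose products partner the heavy chain in the sarcomere were called lower in the mutant library. Of 5 genes of the fast light chain list, 2 were called lower and 1 higher, with a median log2 ratio of -0.83. The lower ones were the MYL11 genes, which encode the regulatory light chain of fast fibres, with 23279 against 10309 counts (ENSDARG00000053254, 2.26-fold lower, 2.21 to 2.31) and 2815 against 736 (ENSDARG00000002589, 3.83-fold, 3.53 to 4.16). The MYL1 genes, for the essential light chain, had 9766 against 5612 counts (ENSDARG00000014196, ratio 0.574, 0.555 to 0.593) and 8339 against 4687 (ENSDARG00000017441, 0.561, 0.541 to 0.582). The higher one, mylk2, encodes a kinase of the light chain and had 19 against 52 counts (2.73-fold, 1.59 to 4.89). The ratio of summed heavy chain counts to the summed light chain list was 1.04 times as high in the mutant library as in wild type (1.02 to 1.06). Against the summed thick filament partners it was 0.944 times as high (0.911 to 0.978), and against the summed thin filament and Z-disc genes 0.868 times (0.854 to 0.881).

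Among 7 measured thick filament partners, a list not limited to genes of fast fibres, 3 were called lower and none higher (median -0.80). mybpc2b, a fast myosin-binding protein C gene, had 2149 against 901 counts (2.39-fold lower, 2.21 to 2.58). A myomesin gene, MYOM1 (ENSDARG00000061249), which crosslinks thick filaments at the M-band, had 2258 against 1075 (2.10-fold, 1.96 to 2.26), and MYBPC3 had 370 against 185 (2.0-fold, 1.67 to 2.40). Of 13 thin filament and Z-disc genes, again not all limited to fast fibres, 4 were called lower and none higher (median -0.78). All 13 had a ratio below 1. The called ones were an ACTA1 gene (ENSDARG00000055618, 2.14-fold lower, 2.06 to 2.22), the TNNT3 genes (ENSDARG00000030270, 2.05-fold, 1.95 to 2.15, and ENSDARG00000068457, 2.42-fold, 2.27 to 2.57) and a TNNI2 gene (ENSDARG00000029069, 2.03-fold, 1.91 to 2.15). These encode skeletal actin and the fast troponins T and I. The most abundant TNNI2 gene, ENSDARG00000035958, had 7030 against 5531 counts and a ratio of 0.786 (0.758 to 0.814), and was not called. The most abundant, the actin gene actc1b, had 43589 against 24683 counts and a ratio of 0.565 (0.557 to 0.574).

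Genes for myosin folding showed no call among 7, with a median of 0.03. UNC45B had 2601 against 2663 counts (ratio 1.02, 0.968 to 1.08) and hsp90aa1.1 3000 against 3212 (1.07, 1.02 to 1.12). The more abundant SMYD1 gene (ENSDARG00000091253) was on the lower side with 2511 against 1431 counts, a ratio of 0.569 (0.533 to 0.607), short of the size for a call. So was the other SMYD1 gene (ENSDARG00000009280), with 434 against 241 counts (0.5545, 0.4717 to 0.6505), and the list median does not show this. None of 16 fibre type and muscle transcription factors was called (median 0.07). pbx4, whose product acts with Myod on fast muscle genes in zebrafish, had 3714 against 3659 counts (0.984, 0.94 to 1.03). MEF2C (ENSDARG00000029764), an activator of sarcomere genes, had 2021 against 1741 (0.86, 0.806 to 0.918). The myogenic factors MYOG (301 against 500, ratio 1.66, 1.44 to 1.92) and MYOD1 (300 against 466, 1.55, 1.34 to 1.80), named after their values were seen, had intervals above equality but did not reach the size for a call.

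**Figure D4:**
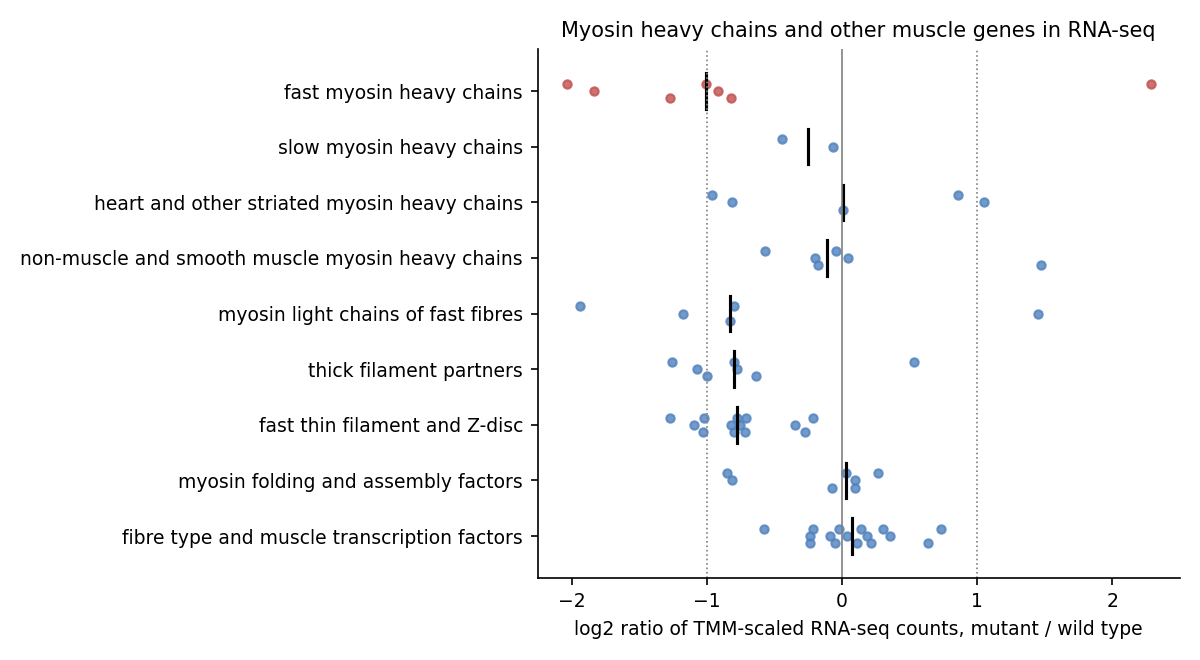
Log2 ratio of TMM-scaled RNA-seq counts, mutant over wild type, for the 7 fast myosin heavy chain genes (red) and the measured genes of 8 other lists (blue). Each point is a gene, black bars are list medians, and dotted lines mark 2-fold. Fast heavy chains, fast light chains, thick filament partners and thin filament genes have medians from -1.01 to -0.78, and the folding and transcription factor lists have medians of 0.03 and 0.07.

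Markers of other tissues gave the background of these whole-embryo values. Summed fast fibre markers stood at 7012 CPM in wild-type and 3916 in mutant RNA-seq, with 5 of 8 called lower and none at 0 counts. The TNNT3 genes stand both in this list and in the thin filament list. Summed slow fibre markers stood at 1818 and 1716 CPM (0 of 6 called, a TNNI1 gene at 0 in both). Most of these counts were those of smyhc1. Of the others, TNNC1 had 1321 against 876 counts (ratio 0.662, 0.607 to 0.722) and myl10 4000 against 3338 (0.833, 0.796 to 0.873). Their intervals and that of smyhc2 lay below that of smyhc1. PROX1 lay on the other side, with 290 against 373 counts (1.284), an interval above equality. The interval of the counted TNNI1 gene, with 104 against 113 counts (1.085), included equality. Epidermal markers stood at 16954 and 17663 CPM (0 of 5) and neuronal markers at 396 and 405 (0 of 6, gap43 at 0 in both). Erythroid markers, which are not muscle genes, were lower too: 1015 against 548 CPM, with 3 of 6 called lower and none at 0. Heart markers stood at 180 and 144 CPM, with 2 of 6 called lower and a TNNT2 gene at 0 in both libraries, and notochord markers at 89.7 and 83.3 (0 of 4). In whole embryos fewer fast fibres and less heavy chain RNA per fibre cannot be told apart, and the part of these tissue values in the difference was not tested.

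In RIP-seq, fast heavy chain counts were lower in RIP-MUT than in RIP-WT. The 7 genes summed to 738 counts in RIP-WT and 547 in RIP-MUT, 375 and 243 CPM, a 1.65-fold lower level after scaling (1.48 to 1.85). One member of 7, myhz1.2, was called lower and none higher, against 5.3% called lower and 8.37% called higher among 15762 genes compared. The median log2 ratio of all genes compared was -0.06, and the 4 abundant members lay between -1.72 and -0.65.

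myhz1.3 had 467 counts in RIP-WT and 364 in RIP-MUT, 1.57-fold lower (1.37 to 1.81). myhz1.1 had 136 and 96 counts, 1.74-fold lower (1.33 to 2.28). Neither reached the size for a call, though their intervals lay below equality. myhz2 had 77 and 58 counts, 1.63-fold lower (1.14 to 2.33). myhz1.2 had 51 and 19 counts and was 3.29-fold lower (1.91 to 5.90), with an interval that overlapped those of myhz1.1 and myhz2 but not that of myhz1.3. Relative to the other 6 genes, myhz1.2 stood at 0.485 times its RIP-WT level in RIP-MUT (0.267 to 0.848).

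The rare genes were at the limit of this depth. myhb had 3 counts in RIP-WT and 7 in RIP-MUT, a ratio of 1.90 (0.435 to 11.4). myha had 2 and 3 counts and myhc4 2 and 0, all within the floor of 3 counts per library, so no fold is given for them. No difference was detectable for these 3 genes at this depth.

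Slow heavy chains outnumbered the fast ones in both RIP-seq libraries. smyhc1 had 814 counts in RIP-WT and 1023 in RIP-MUT, a ratio of 1.02 (0.934 to 1.13), and smyhc2 had 7 and 14. The fast to slow ratio was 0.899 (0.813 to 0.994) in RIP-WT and 0.527 (0.475 to 0.586) in RIP-MUT, 1.70-fold lower (1.47 to 1.97). A few other heavy chain genes were called higher in RIP-MUT: myh7bb had 13 against 157 counts (9.85-fold, 5.60 to 18.9), myh7ba 9 against 43 (3.90-fold, 1.87 to 9.10) and myh14 46 against 181 (3.21-fold, 2.31 to 4.54). The fast share of the counts of the 20 matched heavy chain genes was 27.3% (25.6 to 29%) in RIP-WT and 13.3% (12.3 to 14.4%) in RIP-MUT. This share also reflects the other classes: non-muscle and smooth muscle heavy chains took 41% (39.1 to 42.9%) and 55.5% (54 to 57%). The MYH9 genes (396 against 746 and 395 against 844 counts) and MYH10 (272 against 502) had intervals above equality but were not called.

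Several sarcomere partners were called lower in RIP-MUT. Of 5 fast light chain list genes 4 were called lower and none higher, among them the abundant MYL11 gene with 273 against 156 counts (ENSDARG00000053254, 2.14-fold, 1.75 to 2.63). Of 13 thin filament and Z-disc genes 5 were called lower and none higher. Of 7 folding genes 2 were called lower, of 7 thick filament partners 1, and none of either list higher. Summed fast fibre markers stood at 720 CPM in RIP-WT and 398 in RIP-MUT (3 of 8 called lower, with pvalb1 and pvalb4 at 0 in RIP-MUT) and slow fibre markers at 532 and 535 (1 of 7 called lower, with TNNT1 and a TNNI1 gene at 0 in both and MYBPC1 at 0 in RIP-MUT). Most slow marker counts were those of smyhc1. Of the others, TNNC1 had 44 against 23 counts (ratio 0.426, 0.246 to 0.722) and myl10 160 against 109 (0.556, 0.432 to 0.714). Both intervals lay below that of smyhc1. PROX1 lay on the other side, with 15 against 32 counts (1.74, 0.916 to 3.46), an interval that included equality. Epidermal markers stood at 7805 and 5284 CPM (1 of 5 called lower, none at 0) and erythroid markers at 113 and 49.4 (2 of 5 called lower, hbae1.1 at 0 in RIP-MUT). Neuronal markers stood at 60.0 and 48.1 CPM (1 of 5 called lower, a SNAP25 gene and gap43 at 0 in both). Heart markers stood at 18.8 and 19.1 CPM (1 of 5 called lower, nppa and a TNNT2 gene at 0 in both). Notochord markers stood at 23.9 and 22.7 CPM (0 of 4 called, a SHH gene at 0 in RIP-MUT). The part of these values in the fast heavy chain difference was not tested.

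**Figure D5:**
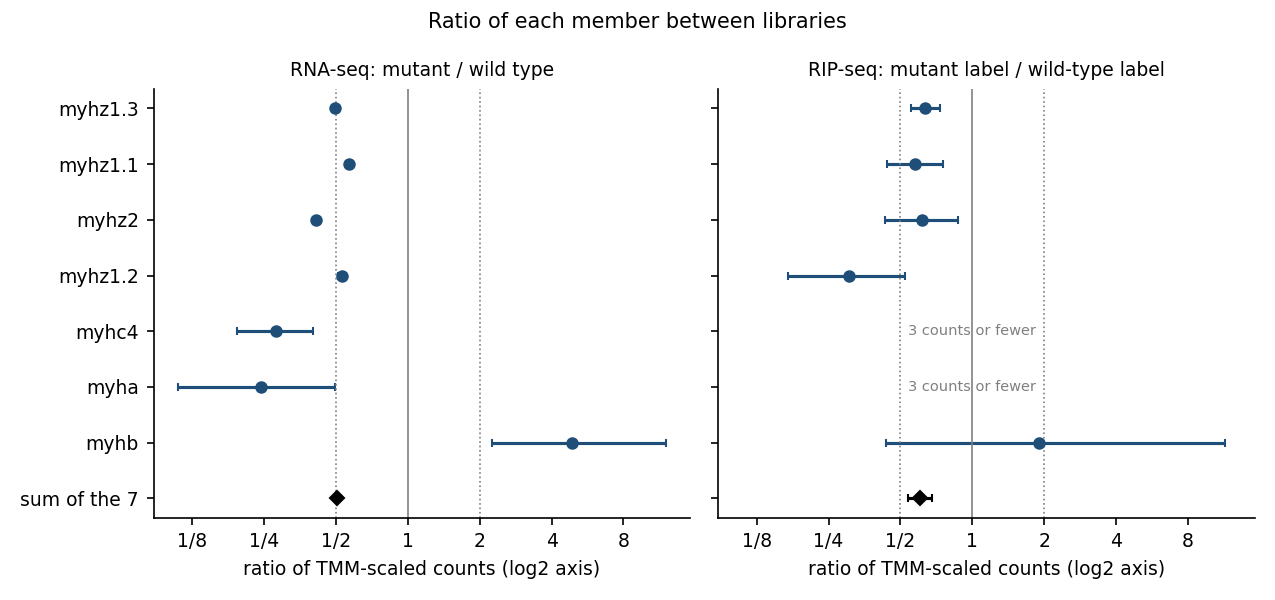
Ratio of TMM-scaled counts (log2 axis) of each gene and of the sum of the 7, mutant over wild type in RNA-seq (left) and RIP-MUT over RIP-WT (right). Points are ratios of single libraries, bars are 95% exact conditional binomial intervals, and dotted lines mark 2-fold. The sum is 1.99-fold lower in RNA-seq and 1.65-fold lower in RIP-seq, and the 2 genes with at most 3 RIP-seq counts have no point.

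Each RIP-seq library was also set beside the RNA-seq library of the same label, wild-type RNA-seq for RIP-WT and mutant RNA-seq for RIP-MUT. This pairing is by label alone, since the protocol of both RIP-seq libraries names mutant embryos that received ddx39a-Flag mRNA. The libraries of a pair can thus differ in genotype and injection as well as in assay. Fast heavy chain counts took a smaller part of RIP-seq than of RNA-seq. The scaled sum was 5.94-fold lower in RIP-WT (5.53 to 6.40) and 4.94-fold lower in RIP-MUT (4.54 to 5.38). For RIP-WT 5 of 7 genes were called lower and 1 higher, against 14.1% and 9.01% of 17412 genes compared. For RIP-MUT 4 of 7 were called lower and none higher, against 16.2% and 13.8% of 17711 genes. These sizes depend on scaling: with total counts, the sum was 21.2-fold and 17.1-fold lower. The assays differ in how the RNA was obtained, so these ratios do not measure recovery by DDX39A.

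Some of the other lists had many genes called lower in RIP-seq, and others had few or none. Of 5 fast light chain list genes 4 were called lower in RIP-WT and 4 in RIP-MUT, and of 8 fast fibre markers 6 and 7. Neuronal markers were called lower for 3 of 6 in RIP-WT and 5 of 6 in RIP-MUT. Heart markers were for 4 of 6 and 2 of 5, and erythroid markers for 3 of 6 and 3 of 5. Thin filament and Z-disc genes were called lower for 7 of 13 in each, with 1 and 2 called higher. Of thick filament partners, 4 of 8 were called lower and 1 higher in RIP-WT, and none of 7 lower and 1 higher in RIP-MUT. Slow fibre markers had 1 of 7 called lower and 1 higher in RIP-WT, and 3 of 6 lower in RIP-MUT. Epidermal markers had none of 5 called lower in either, with 2 called higher in RIP-WT and 1 in RIP-MUT. None of 4 notochord markers was called in either. Against the summed light chain list the fast heavy chain sum was 0.694 times its RNA-seq level in RIP-WT (0.622 to 0.775) and 0.965 times in RIP-MUT (0.837 to 1.11). Against the summed thick filament partners it was 0.277 times (0.243 to 0.316) and 0.26 times (0.224 to 0.301). Against the summed thin filament and Z-disc genes it was 0.346 times (0.319 to 0.376) and 0.462 times (0.42 to 0.509). The part of these values in the heavy chain ratios was not tested.

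Among the abundant genes myhz1.3 stood least far below RNA-seq, 4.35-fold in RIP-WT (3.97 to 4.77) and 3.39-fold in RIP-MUT (3.06 to 3.77). myhz1.1 was lower by 8.55-fold (7.23 to 10.2) and 8.38-fold (6.86 to 10.4). myhz2 was lower by 10.04-fold (8.03 to 12.7) and 6.75-fold (5.22 to 8.91). myhz1.2 was lower by 8.03-fold (6.10 to 10.8) and 13.9-fold (8.90 to 23.1). The intervals of the last 3 genes overlapped in RIP-WT, and that of myhz1.3 lay apart from them in both libraries.

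The share of myhz1.3 in the family was accordingly higher in RIP-seq, 63.3% in RIP-WT (59.7 to 66.8%) and 66.5% in RIP-MUT (62.4 to 70.5%). Relative to the other 6 genes it was 2.0-fold (1.72 to 2.33) and 2.36-fold higher (1.97 to 2.84) than in RNA-seq, a difference that library scaling does not touch. Records aligned to more than 1 place made up 91.8% of RIP-WT and 89.5% of RIP-MUT records, and their part in this shift between copies was not tested.

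The rare genes differed in direction. myhb had 3 counts in RIP-WT against 8 in wild-type RNA-seq, a 6.74-fold higher scaled level (1.15 to 28.1) that was not called with total counts. In RIP-MUT it had 7 against 39 counts, a ratio of 2.64 (0.997 to 5.97) that was not called and became 0.761 with total counts. myhc4 had 2 counts in RIP-WT against 146, 4.06-fold lower (1.11 to 33.9), a call lost with upper-quartile factors, with totals without the 5 leading RIP-seq features and where the whole interval had to lie beyond 2-fold. In RIP-MUT it had 0 against 41 and was called lower only with total counts. myha, with 2 against 41 and 3 against 10 counts, was not called in either, but was called lower in RIP-WT with total counts. Relative to slow heavy chain counts, the fast sum was 7.12-fold lower in RIP-WT than in its RNA-seq library (6.43 to 7.90), and 6.47-fold lower in RIP-MUT (5.82 to 7.21).

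Across the 4 libraries, the genes with the profile closest to that of the summed family were sought among 3455 other named genes with at least 50 CPM in wild-type RNA-seq. Likeness was the distance between log2(CPM + 1) values after each gene was centred on its own mean, a description over 4 libraries. The nearest was the abundant MYL11 gene (ENSDARG00000053254), the fast regulatory light chain, at a distance of 0.378, where the median gene lay at 2.37. It had 2346 and 1081 CPM in wild-type and mutant RNA-seq, and 139 in RIP-WT and 69.4 in RIP-MUT. The next were tnn (0.387), the Z-disc gene ldb3b (0.404), the collagen gene COL1A2 (0.412), tmsb4x (0.416), whose product binds actin monomers, and the alpha globin gene hbae1.2 (0.435). Some of them had few RIP-seq counts. In RIP-WT and RIP-MUT, tnn had 21 and 19, ldb3b 16 and 11, and hbae1.2 15 and 7, so the order of these distances is uncertain. In wild-type and mutant RNA-seq, tnn had 257 and 180 CPM, ldb3b 139 and 79.6, and COL1A2 900 and 678. For tmsb4x the levels were 1458 and 1055 CPM and for hbae1.2 125 and 85.9, against 7946 and 4170 for the summed family. A close profile over 4 libraries therefore does not mean an equal difference between the RNA-seq libraries. The 6 nearest thus included a fast light chain gene, a Z-disc gene and genes of other tissues.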

How the data were processed

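The authors deposited raw counts of reads for each Ensembl gene, as a table for each of 4 libraries of whole zebrafish embryos at 24 h post fertilisation. Per the submitters' processing notes, the build was GRCz10 and the tools were HTSeq 0.6.1p1, Bowtie2 2.2.3, TopHat2 2.2.1, FastQC 0.11.5 and bcl2fastq. The sources used here do not state the strand setting, so antisense and overlapping genes cannot be told apart. Per the labels' protocols, libraries followed oligo(dT) enrichment.

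The 5 summary rows of each table were left out of library sizes. Depth was 9922182, 9533101, 1966053 and 2246938 counts. CPM is a gene's count scaled to the library's gene total. Scaling was by TMM (edgeR 4.0.16, R 4.3.3) within each pair, over the whole table, and genes reaching 1 CPM in at least 1 library of the pair were compared. For this minimum level, CPM was taken from the TMM-scaled library sizes of the pair instead of the gene totals. Ratios carry 95% exact conditional binomial (Clopper-Pearson) intervals, shares exact binomial ones, and ratios of ratios within libraries exact conditional odds ratio ones. A count of 0 allows up to 3 counts. Libraries had no molecular identifiers, so reads of 1 molecule can be counted repeatedly, and intervals and floors cover only the error of counting. No p-values were computed, since there was 1 library per group. List medians used a prior count of 0.5. A symbol, often in human style, was found for 26121 of 31953 gene IDs. List symbols were matched in any case, then without the zebrafish paralog suffix.

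The members and lists were chosen with earlier results of these data known. All 7 members were named. Of each of the 8 lists, up to 4 of the most abundant genes and any called gene could be named, along with the 6 nearest profiles. MYOG, MYOD1, TNNC1, myl10, PROX1, the counted TNNI1 gene and the less abundant SMYD1 gene were named after their values were seen. Alternatives were DESeq2 1.42.0 size factors, total counts, upper-quartile factors, totals without the 5 leading RIP-seq features, no minimum level, a minimum of 5 CPM, calls at 4-fold or with the entire interval past 2-fold, and other sums. The script was tested on simulated data. Intervals came from scipy 1.17.1, under Python 3.11.15 with pandas 2.3.3 and numpy 2.4.6.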

Additional observations from a re-analysis of the deposited data

How the results depend on the processing

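The sum of the 7 genes kept its direction in every comparison and alternative run. In RNA-seq, the mutant over wild-type ratio of the sum (0.503) became 0.525 with total gene counts and with totals without the 5 leading RIP-seq features, and 0.415 without myhz1.1, myhz1.2 and myhz1.3. In RIP-seq, the ratio of RIP-MUT to RIP-WT (0.605) became 0.520 with totals without the leading features. RIP-seq over RNA-seq of the sum, 0.168 with the wild-type label, became 0.0472 with total counts, 0.189 with upper-quartile factors, 0.193 with totals without the leading features and 0.107 without the myhz1 genes. With the mutant label, 0.202 became 0.0584 with total counts, 0.224 with upper-quartile factors and 0.171 without the myhz1 genes. For these pairs, total counts moved the log2 ratio of every gene by -1.83 and -1.79, and for the RIP-seq pair by 0.10. The number of members called lower in RNA-seq (4) fell to 3 with total counts and with totals without the leading features. It was also 3 with a CPM of at least 5 or the whole interval beyond 2-fold, and 1 at 4-fold. In the RIP-seq pair (1) it was 2 with totals without the leading features, and 0 at 4-fold or with the whole interval beyond 2-fold. For RIP-seq over RNA-seq it ranged from 4 to 6 with the wild-type label (5) and from 3 to 5 with the mutant label (4). In RIP-seq over RNA-seq, myhb was called higher with the wild-type label except with total counts, a CPM of at least 5 or the whole interval beyond 2-fold. With the mutant label it was called higher with DESeq2 (2.73) and upper-quartile factors (2.92), and its ratio lay below 1 with total counts (0.761). myhc4 with the wild-type label was not called with upper-quartile factors, totals without the leading features or the whole interval beyond 2-fold. The fast to slow ratios kept within their intervals with smyhc1 alone. For single members, 80 values under other scalings lay inside the counting interval, 20 outside it, and none of those called with TMM scaling crossed a ratio of 1. Identity between the encoded proteins, and the search for further heavy chains by identity, were not run. RIP-seq depth limits myha, myhb and myhc4, at 7 counts or fewer each.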

Other observations

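A further gene with a related symbol, myhz1.1l (ENSDARG00000102414), is not among the 7 genes and was singled out after its values were seen. It had 79 counts in wild-type and 90 in mutant RNA-seq, a ratio of 1.14 (0.831 to 1.56). In RIP-seq it had 3 counts in RIP-WT and 22 in RIP-MUT, a ratio of 5.98 (1.80 to 31.2), where the sum of the 7 genes was lower. The difference between these ratios was not tested.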
